A study of Mus musculus with 12 samples.

Results

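The 40 genes described here encode proteins held at the cell surface of neurons and glia by a glycosylphosphatidylinositol (GPI) anchor, and they were chosen by name from 36047 genes with a value in the deposited data. They are 6 glypicans, 6 contactins, 4 members of the IgLON family, 2 netrin-Gs, 5 ephrin-As, 3 GFRα co-receptors, 3 Nogo receptors, 2 repulsive guidance molecules, 4 proteins of the Ly6 family, and *Reck*, *Thy1*, *Prnp*, *Nrn1* and *Cdh13*. Poly(A) RNA from mouse cortex was sequenced in 12 libraries, 3 from WT and 3 from *Gde2*KO mice at 4 months of age and 3 from WT and 3 from *Gde2*KO mice at 19 months. The study bred *Gde2*-/- animals, in which the deletion is present in every cell, and used males and females. The labels give neither sex nor litter, so the p-values measure the spread between these libraries.

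A GPI anchor is a glycolipid added to the carboxyl end of a protein in the endoplasmic reticulum, which leaves the protein on the outer face of the membrane with no segment in the cytoplasm. GDE2, a membrane enzyme encoded by *Gdpd5* with its catalytic domain outside the cell, cuts this anchor and releases the protein. Such cleavage takes place after translation, so an RNA level does not measure how much of a protein was on the surface or was released. RECK, a protease inhibitor, and the glypicans GPC4 and GPC6 are known substrates. In cortex, glypicans carry heparan sulfate chains that bind Wnt and other ligands, contactins and IgLONs join axons to partner cells, ephrin-As signal to EphA receptors, and GFRα proteins present GDNF-family ligands to the receptor RET.

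Values are normalized counts, the Kallisto estimated counts divided by a size factor for each library and summed over the transcripts of a gene. Gene lengths enter only in TPM, which is used here to compare levels between genes. All 40 members passed the filter for testing, 5 normalized counts or more in at least 47% of the libraries of a comparison. A gene is called changed at a limma adjusted p under 0.1 (Benjamini-Hochberg over all genes tested) with a difference, in either direction, of more than 0.5 natural-log units (0.721 in log2).

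Some libraries stood apart. At 4 months, WT replicates 1 and 2 had summed levels of 8 hippocampal markers of 39510 and 35327 normalized counts, against 9401 to 11345 in the other 4 libraries, and of 8 striatal markers of 5484 and 3478, against 30726 to 73326. At 19 months the hippocampal sums were 6974 to 10115 and the striatal sums 6743 to 19676. Y-linked genes summed to 251 to 370 normalized counts in the 4-month libraries and 371 in *Gde2*KO library A at 19 months, and to 4224 to 4797 in the other 5 libraries at 19 months. Estimated reads were 46434270 to 59728494 at 4 months, but 3707928 in *Gde2*KO library A and 6734475 in WT library A at 19 months, where the others reached 44604721. A single read equals 8.29 normalized counts in the former library and 4.66 in the latter. *Gde2*KO replicate 3 at 4 months had the highest library total, 4.12e+07 normalized counts, against 3.19e+07 to 3.59e+07 in the other libraries of that age. Neuronal markers summed to 216897 to 296551 normalized counts across the 12 libraries, and *Gdpd5*, which encodes GDE2, was lower in every *Gde2*KO library than in every WT library of its age (log2 fold change -0.85, limma adjusted p = 0.463 at 4 months; -1.11, limma adjusted p = 0.0111 at 19 months).

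**Figure D1:**
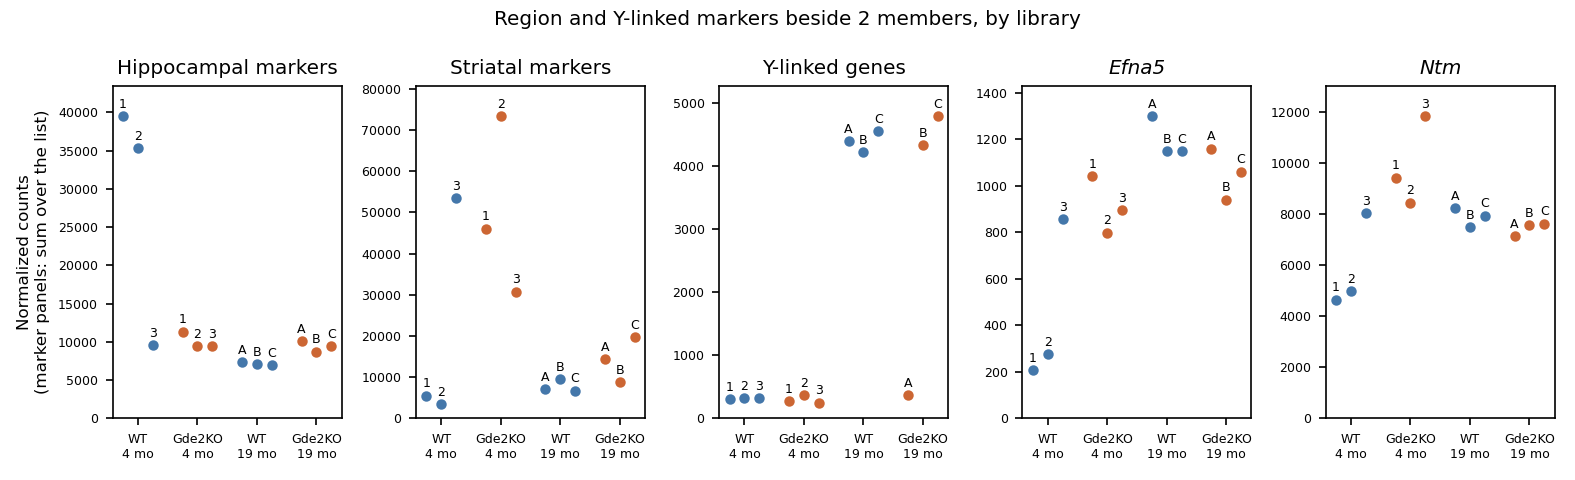
Summed normalized counts of hippocampal, striatal and Y-linked genes and normalized counts of *Efna5* and *Ntm* (vertical axes) in each library (points, numbered or lettered) of the 4 groups (horizontal axis). WT replicates 1 and 2 at 4 months are apart from the other 4 libraries of that age in 4 of the 5 panels, with *Efna5* at 207 and 275 against 799 to 1043.

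Most of the 40 genes were well expressed. *Thy1*, an abundant glycoprotein of neurons, and *Prnp*, which encodes the prion protein, led with means over the 12 libraries of 724 and 696 TPM, with ranges of 629 to 894 and 580 to 895 TPM that overlap. *Nrn1* (271 TPM), the Ly6 protein gene *Lynx1* (194), *Ntm* (179) and *Cntn1* (124) followed, so that 6 members exceeded 100 TPM. Another 23 members lay between 10 and 100 TPM, 10 lay between 1 and 10 TPM, and only *Efna4* was under 1 TPM, with a mean of 0.534. *Gpc2*, a glypican of developing neurons, was just above 1 TPM, with a mean of 2.13 and a range of 1.38 to 3.01. The median of the members was 27.0 TPM, against 11.9 TPM for all genes tested in the 12 libraries. The substrates *Reck*, *Gpc4* and *Gpc6* were low, with means of 7.14, 7.36 and 3.29 TPM. In the libraries of low depth, 5 members had fewer than 20 estimated reads, namely *Gpc2*, *Gpc3*, *Efna1*, *Efna4* and *Cd59b*.

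**Figure D2:**
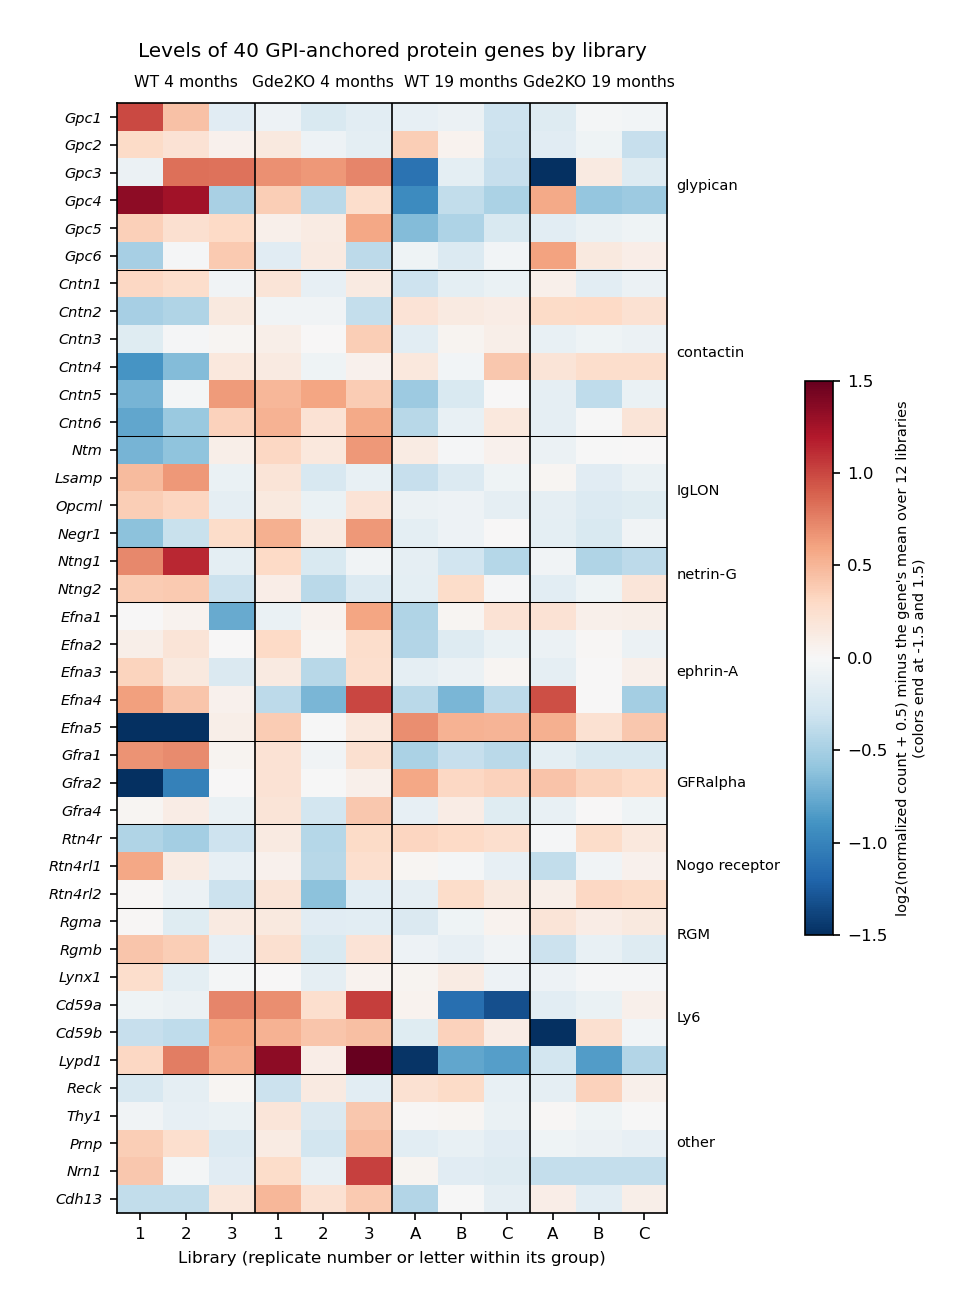
Level of each of the 40 genes (rows, grouped by family) in each of the 12 libraries (columns, grouped by genotype and age), as log2(normalized count + 0.5) minus the mean of the gene. *Efna5* and *Gfra2* are lowest, and *Gpc4* and *Ntng1* highest, in WT replicates 1 and 2 at 4 months, and *Lypd1* is higher at 4 than at 19 months in both genotypes.

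The first question was whether loss of GDE2 changed the RNA of the known substrates. *Reck* (ENSMUSG00000028476.13; GRCm38 chr4:43875530-43944806), whose product inhibits metalloproteases such as ADAM10 at the cell surface, had 378, 407 and 457 normalized counts in WT and 356, 488 and 400 in *Gde2*KO cortices at 4 months. At 19 months it had 522, 544 and 412 in WT and 406, 568 and 471 in *Gde2*KO cortices. The genotypes overlapped at both ages. The log2 fold change of *Gde2*KO over WT was -0.01 at 4 months (standard error 0.17, 95% interval -0.39 to 0.38, limma adjusted p = 0.987) and -0.04 at 19 months (standard error 0.15, 95% interval -0.39 to 0.32, limma adjusted p = 0.961).

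*Gpc4* (ENSMUSG00000031119.4; GRCm38 chrX:52053021-52165252) and *Gpc6* (ENSMUSG00000058571.11; GRCm38 chr14:116925315-117976544) encode glypicans that astrocytes secrete to promote synapse formation. *Gpc4* had 756, 714 and 211 normalized counts in WT and 382, 224 and 355 in *Gde2*KO cortices at 4 months, so that WT replicates 1 and 2 were high and WT replicate 3 was the lowest of the 6. At 19 months it had 154, 229 and 214 in WT and 440, 199 and 204 in *Gde2*KO cortices, where only library A was high. That library was of low depth, with 53 estimated reads for *Gpc4*, and was the only one of that age with low Y-linked levels. The log2 fold change of *Gpc4* was -0.64 at 4 months (standard error 0.48, 95% interval -1.74 to 0.47, limma adjusted p = 0.548) and 0.41 at 19 months (standard error 0.31, 95% interval -0.29 to 1.12, limma adjusted p = 0.751). The 4-month value was 0.56 without WT replicates 1 and 2 and -1.24 without WT replicate 3 (limma adjusted p = 0.0228), and the 19-month value was -0.14 without both libraries of low depth.

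*Gpc6* had 127, 177 and 236 normalized counts in WT and 160, 197 and 137 in *Gde2*KO cortices at 4 months, and *Gde2*KO over WT was -0.10 on the log2 scale (95% interval -0.70 to 0.51, standard error 0.26, limma adjusted p = 0.866). Without WT replicates 1 and 2 this was -0.53. At 19 months it had 172, 156 and 175 in WT and 274, 199 and 193 in *Gde2*KO cortices. Every *Gde2*KO library was above every WT library at that age, but the difference of 0.39 in log2 did not pass the test (standard error 0.17, 95% interval -0.0032 to 0.775, limma adjusted p = 0.711; two-sided exact permutation p = 0.1, the smallest that 3 libraries against 3 allow). The interaction of genotype and age was 1.05 for *Gpc4* and 0.48 for *Gpc6* on the log2 scale (limma adjusted p = 0.463 and 0.499).

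**Figure D3:**
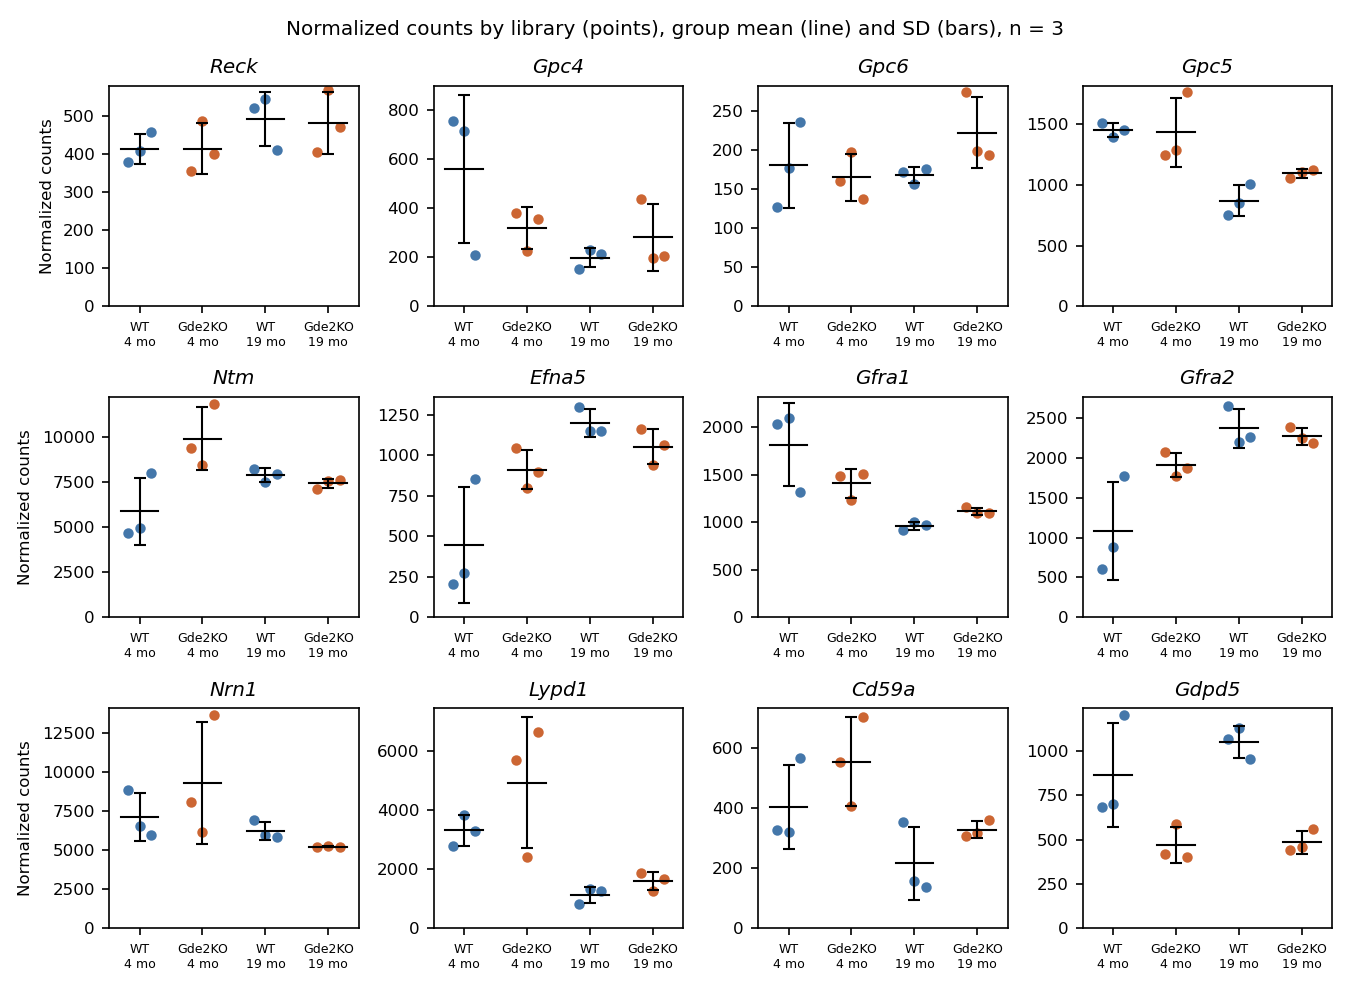
Normalized counts (vertical axes, from 0) of 11 members and of *Gdpd5* in each library (points) of the 4 groups, with the mean (line) and SD (bars) of 3 libraries. *Reck* overlaps between genotypes at both ages, *Gdpd5* is lower in *Gde2*KO cortices at both ages, and the WT points of *Gpc4*, *Efna5* and *Gfra2* at 4 months are spread more widely than those of the other groups.

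At 4 months, 0 of the 40 members were called between genotypes by limma, where 0.126% of 19035 genes tested were called. At an unadjusted p under 0.05 there were 6 members, 15% of them, where 10.6% of all genes were. Their log2 fold changes ran from -0.64 to 1.31 with a median of 0.04, against 0.11 for all genes, and 20 lay above 0 and 20 below. Without *Gde2*KO replicate 3 the median was 0.01 for the members and 0.04 for all genes. The members of smallest p were the IgLON gene *Ntm*, the T-cadherin gene *Cdh13* and the ephrin gene *Efna5*.

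*Ntm*, which encodes neurotrimin, an adhesion protein of neurites, had 4646, 4970 and 8012 normalized counts in WT and 9406, 8439 and 11816 in *Gde2*KO cortices. The groups did not overlap, and *Gde2*KO over WT was 0.78 in log2 (standard error 0.23, limma adjusted p = 0.463), but WT replicate 3 was nearer to *Gde2*KO replicates 1 and 2 than to the other WT libraries. *Cdh13*, whose product is a cadherin with no cytoplasmic part, had 1319, 1315 and 1908 in WT and 2407, 1991 and 2241 in *Gde2*KO cortices (log2 fold change 0.57, standard error 0.18, limma adjusted p = 0.463). These were the only members whose genotypes did not overlap at 4 months, 2 of 40 (15.4% of all genes tested).

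*Efna5*, a ligand of EphA receptors that guides axons by repulsion, had 207, 275 and 857 normalized counts in WT and 1043, 799 and 896 in *Gde2*KO cortices. WT replicate 3 lay within the *Gde2*KO range, and the log2 fold change was 1.31 (standard error 0.47, 95% interval 0.23 to 2.39, limma adjusted p = 0.463). *Gfra2*, the co-receptor for neurturin, showed the same order, with 602, 879 and 1780 in WT and 2074, 1777 and 1873 in *Gde2*KO cortices (log2 fold change 0.96, standard error 0.35, limma adjusted p = 0.463). The IgLON gene *Negr1* (0.67) and the contactin gene *Cntn6* (0.77) were the other members at an unadjusted p under 0.05.

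In all, WT replicates 1 and 2 were both above or both below the other 4 libraries of 4 months for 23 members (57.5%), where this held for 34.9% of all genes tested. Among the 10 that were above are *Gpc1*, *Gpc4*, *Lsamp*, *Gfra1* and *Ntng1*, and among the 13 that were below are *Ntm*, *Negr1*, *Efna5*, *Gfra2* and *Cdh13* and the contactin genes *Cntn2* to *Cntn6*. The median SD of log2 values over the members was 0.33 in WT at 4 months, against 0.24 in *Gde2*KO at 4 months, 0.14 in WT at 19 months and 0.11 in *Gde2*KO at 19 months. Over all genes tested these medians were 0.18, 0.26, 0.14 and 0.16. Without WT replicates 1 and 2, the log2 fold changes were 0.29 for *Ntm*, 0.21 for *Cdh13*, 0.08 for *Efna5* and 0.10 for *Gfra2*, and 0 members were called. That fit sets a single WT library against 3 *Gde2*KO libraries, takes the spread from the latter and called 0.0731% of all genes. Without WT replicate 3 instead, 11 members (27.5%) were called, where 8.03% of all genes were, among them *Efna5* at 1.93 and *Ntm* at 1.03 (limma adjusted p = 0.0015 and 0.0125). How much the hippocampal and striatal content of the WT libraries contributed to these differences was not tested, and in bulk tissue fewer cells of a type and less RNA per cell cannot be told apart.

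**Figure D4:**
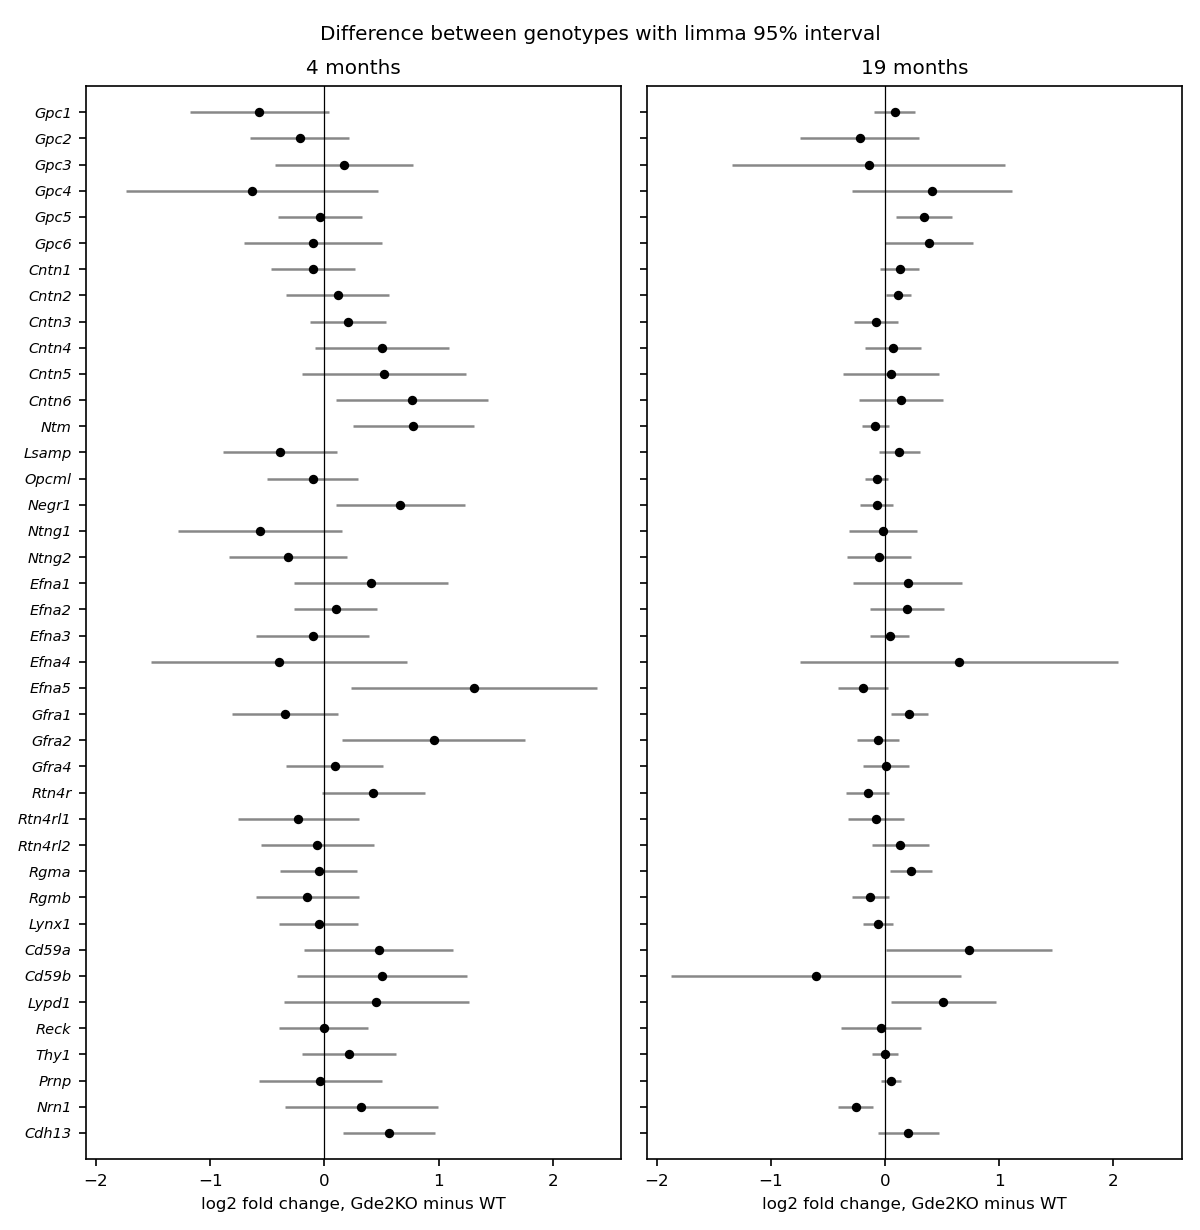
Log2 fold change of *Gde2*KO over WT (points, horizontal axes) with the limma 95% interval (lines) for the 40 genes at 4 months and at 19 months. At 4 months the interval of 6 members excludes 0, with *Efna5* at 1.31 the highest. At 19 months the interval of 7 members excludes 0, and most points lie close to 0.

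At 19 months, 0 of the 40 members were called by limma, where 0.0969% of 18583 genes tested were called. There were 7 members at an unadjusted p under 0.05 (17.5%, against 6.91% of all genes), and the log2 fold changes ran from -0.60 to 0.74 with a median of 0.05, against -0.02 for all genes. The genotypes did not overlap for 8 members, 6 higher and 2 lower in *Gde2*KO cortices (20%, against 14.2% of all genes). *Cntn2*, *Efna2* and *Rgma* were in this group with *Gpc5*, *Gpc6* and *Gfra1* on the higher side, and *Opcml* and *Nrn1* on the lower side, and the largest of these differences was 0.39 on the log2 scale, for *Gpc6*. Hippocampal markers did not overlap between genotypes at this age either, with summed levels of 6974 to 7348 normalized counts in WT and 8728 to 10115 in *Gde2*KO cortices, and the hippocampal gene *Fibcd1* was called higher (log2 fold change 1.44, limma adjusted p = 0.0111). Astrocyte markers did not overlap either, with sums of 89730 to 96454 in WT and 98898 to 107339 in *Gde2*KO cortices, but 0 of the 7 markers were called. Striatal markers overlapped, with sums of 6743 to 9566 in WT and 8830 to 19676 in *Gde2*KO cortices. All 8 striatal markers were higher in *Gde2*KO cortices (log2 fold change 0.62 to 1.97), but 0 were called. The part of these markers in the members' differences was not tested.

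*Nrn1*, which encodes neuritin, a neurite growth factor induced by activity, had 6928, 5996 and 5861 normalized counts in WT and 5233, 5250 and 5232 in *Gde2*KO cortices. Its difference of -0.25 in log2 had the smallest p of the members (standard error 0.07, limma adjusted p = 0.567). *Gpc5* had 750, 852 and 1006 in WT and 1055, 1103 and 1125 in *Gde2*KO cortices (log2 fold change 0.34, standard error 0.11, limma adjusted p = 0.624). *Gfra1*, the co-receptor for GDNF, had 918, 1006 and 970 in WT and 1161, 1096 and 1097 in *Gde2*KO cortices (log2 fold change 0.21, standard error 0.07, limma adjusted p = 0.647). The WT libraries of *Gpc5* were spread more widely than those of *Gfra1*, and all 3 differences were under the size that the call requires.

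The Ly6 gene *Cd59a*, whose product stops complement from forming pores in the cell's own membrane, had the largest log2 fold change at 19 months, 0.74 (standard error 0.32, 95% interval 0.01 to 1.47, limma adjusted p = 0.711). It had 355, 156 and 137 normalized counts in WT and 307, 318 and 360 in *Gde2*KO cortices, so that WT library A, of low depth, was as high as the *Gde2*KO libraries. Without both libraries of low depth its log2 fold change was 1.21 (standard error 0.14, limma adjusted p = 0.0594), the only member called in that setting. That setting also leaves out the only 19-month library with low Y-linked levels. With WT library A or *Gde2*KO library A left out alone, 0 members were called, where 0.049% and 0.12% of all genes were. At 4 months, WT replicates 1 and 2 had 326 and 320 and WT replicate 3 had 566, within the *Gde2*KO range of 406 to 703. Of the 31-base stretches of *Cd59a* transcripts, 9.39% also occur in another gene, mostly in its paralog *Cd59b*, so the division of reads between the 2 genes is uncertain.

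The remaining members lay in families of which 0 genes were called between genotypes at either age. Among the adhesion proteins, the contactin genes ranged from -0.10 to 0.77 in log2 fold change at 4 months and from -0.08 to 0.14 at 19 months, and the IgLON genes, whose products pair with each other across neurites, from -0.39 to 0.78 and from -0.08 to 0.13. *Cntn4* illustrates the narrowing, with 650, 766 and 1341 normalized counts in WT and 1317, 1149 and 1260 in *Gde2*KO cortices at 4 months, and with 1337, 1166 and 1585 and 1377, 1442 and 1439 at 19 months. The netrin-G genes lay at -0.56 and -0.32 at 4 months and at -0.02 and -0.05 at 19 months, for *Ntng1* and *Ntng2* in turn.

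Among the guidance genes, the ephrin-A genes ranged from -0.40 to 1.31 in log2 fold change at 4 months and from -0.19 to 0.65 at 19 months. The lowest of the former and the highest of the latter were both for *Efna4*, which had 2 estimated reads in WT library A and 3 in *Gde2*KO library A at 19 months. The genes of the repulsive guidance molecules, ligands of neogenin, lay between -0.15 and -0.05 at 4 months and between -0.13 and 0.23 at 19 months. The Nogo receptor genes, whose products bind inhibitors of axon growth in myelin, lay between -0.23 and 0.43 at 4 months and between -0.15 and 0.14 at 19 months. *Rtn4r*, the Nogo receptor gene with the highest of these values, had 889, 853 and 979 normalized counts in WT and 1339, 908 and 1493 in *Gde2*KO cortices at 4 months, where the genotypes overlapped through *Gde2*KO replicate 2.

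The genotypes overlapped at both ages for the abundant members *Thy1*, *Prnp* and *Lynx1*. *Thy1* had 18822, 17946 and 18134 normalized counts in WT and 22170, 16718 and 25877 in *Gde2*KO cortices at 4 months, with *Gde2*KO libraries on both sides of the WT range, and 18124 to 19901 in all 6 libraries at 19 months (log2 fold change 0.22, standard error 0.18, and 0.00016, standard error 0.05). *Prnp* had 32267, 29729 and 21755 in WT and 27219, 20703 and 34505 in *Gde2*KO cortices at 4 months and 22234 to 23944 at 19 months (log2 fold change -0.034, standard error 0.23, and 0.05, standard error 0.04). *Lynx1*, whose product binds nicotinic acetylcholine receptors, lay between 12502 and 16600 in all 12 libraries.

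For the interaction of genotype and age, 0 of the 40 members were called by limma, where 0.048% of 18731 genes were, and 7 members (17.5%) had an unadjusted p under 0.05, against 12.9% of all genes. The smallest p belonged to *Ntm* (log2 difference between the genotype effects, 19 minus 4 months, -0.86; standard error 0.25), *Efna5* (-1.5; 0.54) and *Negr1* (-0.74; 0.27), each at a limma adjusted p of 0.368. All 3 were low in WT replicates 1 and 2 at 4 months. The interaction uses the same libraries as the comparisons at each age. Without WT replicate 3, 11 members were called for the interaction, where 11% of all genes were.

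The comparisons of 19 with 4 months within a genotype set side by side libraries of different depth and with different levels of Y-linked genes, so age, library set and sex cannot be told apart. In WT cortices 8 of the 40 members were called (20%, against 13.7% of 18731 genes). Of these, 2 were higher at 19 months, where 6.29% of all genes were called higher, and 6 were lower, where 7.4% were. In *Gde2*KO cortices 3 members were called (7.5%, against 11.9% of all genes), 0 higher and 3 lower, where 2.55% and 9.32% of all genes were called higher and lower. The median log2 change of all genes was -0.21 in *Gde2*KO cortices and -0.04 after median-of-ratios scaling, which turned 478 genes called higher and 1746 lower into 732 and 939. Without *Gde2*KO replicate 3 at 4 months, the library of highest total, that median was -0.14. In that setting 1 member was called, where 5.91% of all genes were.

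*Lypd1*, a Ly6 gene whose product dampens nicotinic acetylcholine receptors, was the only member called in both genotypes. It fell from 2799, 3849 and 3292 normalized counts to 812, 1313 and 1266 in WT and from 5688, 2419 and 6649 to 1866, 1260 and 1659 in *Gde2*KO cortices. Every 19-month library was below every 4-month library of its genotype, with log2 changes of -1.57 (standard error 0.32, limma adjusted p = 0.00807) and -1.52 (standard error 0.32, limma adjusted p = 0.0114). Without WT replicates 1 and 2 the WT change was -1.58 (limma adjusted p = 0.143). *Lypd1* transcripts share 18.1% of their 31-base stretches with other genes, mainly with the overlapping *Gpr39*.

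The co-receptor genes *Gfra1* and *Gfra2* moved in opposite directions in WT cortices, while the persephin co-receptor gene *Gfra4* did not pass the test (-0.08, limma adjusted p = 0.729). *Gfra1* fell from 2036, 2101 and 1317 normalized counts to 918, 1006 and 970 (log2 change -0.88, standard error 0.16, limma adjusted p = 0.00436). *Gfra2* rose from 602, 879 and 1780 to 2657, 2201 and 2267 (log2 change 1.27, standard error 0.28, limma adjusted p = 0.0112). In *Gde2*KO cortices the changes were -0.33 and 0.25 (limma adjusted p = 0.147 and 0.531). Without WT replicates 1 and 2 the WT changes were -0.45 and 0.41, and neither was called.

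*Efna5* was the other member called higher in WT cortices, from 207, 275 and 857 normalized counts to 1300, 1150 and 1149 (log2 change 1.71, standard error 0.38, limma adjusted p = 0.0114), and its change was 0.48 without WT replicates 1 and 2 and 0.21 in *Gde2*KO cortices (limma adjusted p = 0.243 and 0.711). *Rtn4r* missed the call by its size alone, with 889, 853 and 979 at 4 months and 1523, 1498 and 1451 at 19 months (log2 change 0.719, limma adjusted p = 0.0109). *Gpc5* fell in WT cortices from 1510, 1393 and 1452 to 750, 852 and 1006 (log2 change -0.75, standard error 0.14, limma adjusted p = 0.00534), with close replicates at 4 months, and was -0.71 after median-of-ratios scaling, just under the size needed for a call. *Ntng1*, the netrin-G1 gene, whose product sits on axon terminals, fell from 1159, 1546 and 637 to 643, 575 and 524 (log2 change -0.85, standard error 0.26, limma adjusted p = 0.0422), and the change was -0.14 without WT replicates 1 and 2. The remaining members called in WT were *Cd59a* (-0.99, limma adjusted p = 0.061) and *Gpc4* (-1.30, limma adjusted p = 0.0641). Without WT replicates 1 and 2, 0 of the 40 members were called for age in WT, where 2.77% of all genes were, with *Gpc5* at -0.75 and *Cd59a* at -1.52 (limma adjusted p = 0.119 and 0.139). A single WT library of 4 months is left in that fit, and it is assumed to vary like the libraries of the other groups. The changes of *Gpc5* and *Lypd1* were as large as with all libraries.

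In *Gde2*KO cortices *Nrn1* fell from 8109, 6198 and 13705 normalized counts to 5233, 5250 and 5232 (log2 change -0.75, standard error 0.23, limma adjusted p = 0.0383). Replicate 3 at 4 months was far above the other libraries, the change was -0.44 without it (limma adjusted p = 0.101), and -0.59 after median-of-ratios scaling, under the size needed. The X-linked glypican gene *Gpc3* fell from 211, 205 and 217 to 33.2, 144 and 114 (log2 change -1.36, standard error 0.47, limma adjusted p = 0.0557). The lowest value, in library A, stands for 4 estimated reads, and without both libraries of low depth the change was -0.72 and was not called (limma adjusted p = 0.0959). In WT cortices *Gpc3* had 123, 233 and 231 at 4 months and 60.6, 118 and 103 at 19 months, which did not pass the test (-1.05, limma adjusted p = 0.133). Striatal markers were also lower at 19 than at 4 months in *Gde2*KO cortices, with summed levels of 8830 to 19676 against 30726 to 73326 normalized counts, and their part in these changes was not tested.

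The share of each transcript in its gene gave another readout of the same loci. At 4 months, 33 members had 2 or more transcripts to test and 1, *Cntn1*, was called (limma diffSplice adjusted p under 0.1 and a share of TPM that differed by over 10 percentage points; 1.01% of 12235 genes were called). *Cntn1* (ENSMUSG00000055022.14; GRCm38 chr15:92051165-92341967) encodes contactin 1, which binds axons to myelinating glia beside the node of Ranvier. Its main transcripts ENSMUST00000169825.7 and ENSMUST00000068378.5 have the same coding exons, with a coding length of 3060 bases, and share 22 of 23 introns. They begin at different first exons, at positions 92051165 and 92161357, and end at 92341967 and 92340114. The 250 bases before each start are printed, from the RefSeq sequences of GRCm38.p6 on the plus strand with CG pairs in capitals, because the called difference is between transcripts of these starts.
Start of ENSMUST00000169825.7, chr15:92050915-92051164: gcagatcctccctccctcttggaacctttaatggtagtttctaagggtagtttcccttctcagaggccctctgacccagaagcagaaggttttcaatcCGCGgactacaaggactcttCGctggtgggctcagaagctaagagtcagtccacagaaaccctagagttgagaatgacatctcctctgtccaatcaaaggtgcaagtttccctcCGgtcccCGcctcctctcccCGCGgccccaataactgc
Start of ENSMUST00000068378.5, chr15:92161107-92161356: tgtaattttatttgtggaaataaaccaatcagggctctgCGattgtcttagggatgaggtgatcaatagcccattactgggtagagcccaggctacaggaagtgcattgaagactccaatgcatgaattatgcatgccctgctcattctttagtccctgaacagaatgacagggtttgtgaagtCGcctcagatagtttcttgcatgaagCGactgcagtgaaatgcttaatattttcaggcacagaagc
The former window holds 7 CG pairs and is 53.6% G or C, and the latter holds 3 CG pairs and is 43.6% G or C. Of 32851 RefSeq promoter windows of the same length, 46.3% hold at least 7 and 71% at least 3 CG pairs.

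ENSMUST00000068378.5, from the downstream start, made up 20%, 19.2% and 13.3% of *Cntn1* TPM in WT and 6.2%, 10.2% and 2.9% in *Gde2*KO cortices at 4 months. Every *Gde2*KO library was below every WT library, with a difference of -11.1 percentage points (limma diffSplice adjusted p = 0.0959). ENSMUST00000169825.7, from the upstream start, made up 76.4%, 76.6% and 82.4% in WT and 88.6%, 84.1% and 93.4% in *Gde2*KO cortices. The summed level of *Cntn1* did not differ at the threshold (log2 fold change -0.10, limma adjusted p = 0.762). The call was lost when any 4-month library other than *Gde2*KO replicate 2 was left out, although the difference then ran from -9.31 to -13.2 points. Without WT replicates 1 and 2 it was -6.91 points. The test reads the differences in the first exon and in the last exon together, so start and end cannot be told apart.

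**Figure D5:**
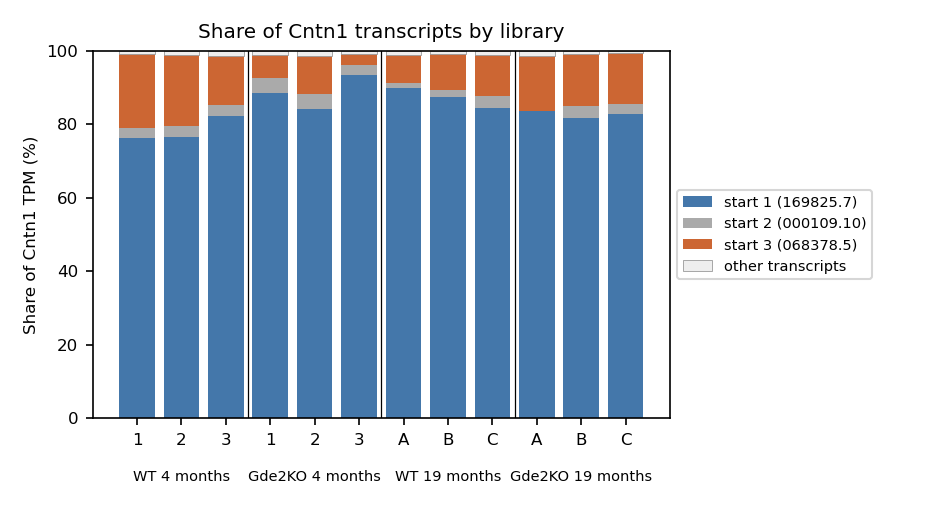
Share of each *Cntn1* transcript in the TPM of the gene (vertical axis, percent) in each library (bars, grouped by genotype and age). The segment of ENSMUST00000068378.5 (start 3) is 13.3% to 20% in WT and 2.9% to 10.2% in *Gde2*KO cortices at 4 months, and 7.5% to 11.2% in WT and 13.9% to 15.1% in *Gde2*KO cortices at 19 months.

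At 19 months, 34 members could be tested and 0 were called for transcript usage by limma diffSplice, where 0.171% of 12253 genes were. An unadjusted p under 0.05 was found for 2 of the 34 members and for 625 of the 12253 genes. The smallest p belonged to *Cntn6*, a contactin of neurons, whose transcript ENSMUST00000089215.11 made up 62.2%, 59.6% and 81.6% of TPM in WT and 99.2%, 88.3% and 99.5% in *Gde2*KO cortices. The difference was 27.9 percentage points (limma diffSplice adjusted p = 0.190). *Gpc2* followed, with 0%, 0% and 0% for ENSMUST00000159350.1 in WT and 66.3%, 28.9% and 8.4% in *Gde2*KO cortices (limma diffSplice adjusted p = 0.950). *Gpc2* is of low level and shares 52% of its 31-base stretches with the overlapping locus *Gm43720*, so its transcripts are poorly resolved. *Cntn2*, a contactin of the axon beside the node, had the smallest diffSplice p of the members at 4 months (adjusted p = 5.28e-07), but no transcript of it differed by more than 2.89 points.

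Genes that act on GPI-anchored proteins were measured alongside. Of 11 genes for cleavage and shedding, 0 were called between genotypes at 4 months and 1, *Gdpd5* itself, at 19 months. *Adam10*, the sheddase that RECK inhibits, had 3052 to 3420 normalized counts in WT and 3117 to 3658 in *Gde2*KO cortices at 4 months and 2455 to 2677 and 2565 to 2850 at 19 months. *Gdpd2*, which encodes GDE3, another enzyme of the GDE family, fell with age in both genotypes (log2 change -1.19 in WT, limma adjusted p = 0.0165; -1.13 in *Gde2*KO, limma adjusted p = 0.021), and was -1.05 but not called in WT without WT replicates 1 and 2 (limma adjusted p = 0.297). *Mmp14*, a membrane-bound metalloprotease, fell in *Gde2*KO cortices (-0.83, limma adjusted p = 0.0114), but was not called after median-of-ratios scaling. Of 9 genes of the GPI transamidase and of anchor remodeling, 0 were called in any of the 5 gene-level comparisons.

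Of 37 genes for ligands, receptors and partners of the members, 36 were tested at 4 months and 37 at 19 months, and 0 were called between genotypes. For age in WT cortices 12 of 37 were called, 9 lower and 3 higher, where 13.7% of all genes were called. The EphA receptor genes, whose products bind ephrin-As, formed the largest group. *Epha6* fell from 3582, 3049 and 892 normalized counts to 270, 307 and 390 (log2 change -2.74, limma adjusted p = 0.00172), and *Epha3*, *Epha4*, *Epha5* and *Epha7* fell by 1.60, 0.74, 0.998 and 1.58 on the log2 scale, while *Epha8* rose (1.30). As with the ephrin gene *Efna5*, WT replicates 1 and 2 at 4 months stood apart from WT replicate 3 for these receptors. Without these replicates a single WT library of 4 months is left, and of these receptor genes only *Epha6* was still called. In *Gde2*KO cortices 2 partners were called for age, where 11.9% of all genes were. They were *Omg*, a ligand of Nogo receptors (-0.76, limma adjusted p = 0.0171, but -0.59 and not called after median-of-ratios scaling), and *Adipoq*, a ligand of T-cadherin. *Adipoq* was at most 2.7 normalized counts in every 4-month library and 5.9 to 32.6 at 19 months, and it passed the filter only through the latter. Without both libraries of low depth *Adipoq* no longer passed that filter, so it was not tested for age in either genotype.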

How the data were processed

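Cortical RNA of 12 mice was sequenced by the study (3 per genotype and age). The authors deposited signal values per transcript: Kallisto estimated counts on the GRCm38 transcriptome, divided by a Sleuth size factor for each library, and a second table of signal values with TPM scaled in the same way. Versions of both tools are not given in the sources used here. The authors' notes also name bcl2fastq 2.17, Trimmomatic 0.36 and STAR 2.5.2b. Each of the 12 value columns was mapped to a group by its name. Columns of 19 months bear no replicate number and were lettered A to C in the order of the columns. Transcript values were summed to genes (118489 transcripts, 1673 without a gene). Depth was estimated as the library total over its commonest low value, taken as 1 read. Values were not counts: whole reads, to a tolerance of 0.01, were found for 46.7% to 62.9% of genes above 0, and a count model was not applied. No pair of libraries shared identical values.

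limma 3.58.1 in R 4.3.3 was fitted with an intensity trend to log2(value + 0.5), separately at each age for genotype, and to 12 libraries in 4 groups for age and the interaction. The interaction was called at the adjusted p alone. Fold changes on this scale understate changes of low genes. Transcript usage was tested with diffSplice on transcripts with a mean of 5 or more. The members, gene lists and tests were chosen with earlier results of these data known. Named in full are *Reck*, *Gpc4*, *Gpc6*, the called members of a comparison (the 6 of smallest p) or else the 3 of smallest p, 2 for usage at each age, and called genes of the pathway lists. Other genes named were chosen after their values were seen. Shared stretches were counted between GENCODE vM21 transcripts of different genes. On simulated data with 200 changed genes, 200 were recovered at each age and 194 for the interaction. For usage, recovery and false calls were scored by the adjusted p alone, without the share threshold of the reported calls. By that rule 198 were recovered at 4 months and 96 at 19 months. False calls numbered 19 at 4 months, 1 at 19 months and 8 for the interaction, and 36 and 2 for usage at the 2 ages. The changes were planted in genes of high level and were larger than any genotype difference in a member's level. No simulated library stood apart, so the recovery does not measure the power for these members. At 4 months the deviations of same-numbered libraries correlated at 0.06, 0.01 and -0.05, so numbers were not taken as pairs. Alternatives varied the pseudocount, filter, scaling, variance model and threshold, used gene-level TPM, or left out libraries. Figures were drawn in matplotlib 3.10.9 under python 3.11.15, and tables were handled in pandas 2.3.3.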

Additional observations from a re-analysis of the deposited data

Results flagged for a closer look

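Of 34 members with 2 or more transcripts tested, 4 (*Cntn1*, *Cntn4*, *Cntn6* and *Ntm*; 11.8%) had a transcript whose share separated the genotypes fully at both ages in opposite orders, and this held for 6.17% of 12301 genes. *Cntn1* and *Cntn6* are given here because their transcripts had been named at a single age, each with every *Gde2*KO library below every WT library at 4 months and above every WT library at 19 months. For *Cntn1* transcript ENSMUST00000068378.5 the difference of *Gde2*KO minus WT was -11.1 percentage points at 4 months and 4.87 at 19 months, which is 15.95 points apart. For *Cntn6* transcript ENSMUST00000089215.11 it was -29.5 and 27.9 points, which is 57.41 points apart, with shares of 80.8%, 86.8% and 59.4% in WT and 46.0%, 46.3% and 46.2% in *Gde2*KO cortices at 4 months. Permuting genotype within each age gave a two-sided exact permutation p of 0.005 for each, the smallest that the 400 arrangements allow. These transcripts were picked for full separation in opposite orders, and that pattern fixes this p in advance. It therefore carries no information on either gene, and the test was added after the data had been seen. In the fit across all genes, the interaction was not past the threshold for either gene (limma diffSplice adjusted p = 0.781 for *Cntn1* and 0.163 for *Cntn6*). In that fit 0 of 34 members passed, where 1.58% of 12304 genes did, with 3 members (8.82%) at an unadjusted p under 0.05, against 8.57% of genes.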

How the results depend on the processing

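Limits: 3 libraries a group, 2 WT libraries at 4 months with other region markers, a *Gde2*KO library of high total at 4 months, and 2 libraries of low depth at 19 months. Between genotypes, 17 of 19 alternatives at 4 months and 17 of 18 at 19 months kept 0 members called. Array weights gave 10 members at 4 months (12.7% of all genes) and 20 for the interaction (34.5% of all genes), and the range over libraries left out was 0 to 11 for both. Without both libraries of low depth 1 member was called at 19 months (0.181% of all genes). For age in WT the adjusted p alone gave 15 members (28.2% of all genes), leaving out WT replicates 1 and 2 gave 0 (2.77%), and the range over libraries left out was 5 to 11. For age in *Gde2*KO the adjusted p alone gave 7 (32.3% of all genes), and the range over libraries left out was 1 to 5. For transcript usage the range over libraries left out was 0 to 1 members at both ages. Over all genes, the range was 83 of 12215 to 661 of 12244 at 4 months and 22 of 12236 to 60 of 12257 at 19 months. The causes were not tested.

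Signs of values near 0 turned. *Reck* at 4 months was 0.0399 with gene-level TPM and -0.13 to 0.10 over libraries left out, and at 19 months 0.13 without both libraries of low depth and -0.16 to 0.0803 over libraries left out. *Gpc4* at 4 months was 0.56 without WT replicates 1 and 2, and at 19 months -0.0012 with array weights and -0.14 without both libraries of low depth. *Gpc6* at 4 months was -0.32 to 0.12 over libraries left out.

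With the replicate number as a block at 4 months, 0 members were called among 21 genes, and *Cntn1* was called for usage among 98 genes, so the block changed no call of a member. The 24 genes called at 4 months were 2420 with array weights and 1510 without WT replicate 3.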
